A study of Homo sapiens with 4 samples.

Results

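NF-kB is a family of transcription factors built as dimers of 5 related subunits, encoded by NFKB1, NFKB2, REL, RELA and RELB. The set described here joins those subunits with the inhibitors NFKBIA and TNFAIP3 and with TNFAIP2, TRAF1 and BIRC3, which NF-kB is known to induce. These 10 genes were looked up by symbol in the platform annotation of the array. Of them, 9 had a transcript cluster, which is a probe set that summarises one gene locus, and each of the 9 had 1. BIRC3, a ubiquitin ligase of the inhibitor of apoptosis family, was not analysed here. In all, 21448 transcript clusters were measured, 17709 of them with a gene symbol.

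SUIT2 cells, a human tumour line, were given fb-PMT at 30 µM for 24 h (n = 2 arrays) or phosphate-buffered saline for the same 24 h (control, n = 2 arrays). The sample titles call the control cells untreated. fb-PMT is a polyethylene glycol conjugate of a thyroid hormone analog aimed at a receptor site on integrin αvβ3, and the study asked how it alters transcription in tumour cells. One line was used. Whether the 2 arrays of a group stand for separate cultures is not stated, and each p-value therefore reflects the spread of these arrays alone, which may be technical. SUIT2 is known as a pancreatic carcinoma line, while the labels call the cells glioblastoma. Background was judged by the array's negative control probe sets. Of 6 glial marker genes, GFAP and OLIG2 among them, 6 lay below these controls on every array. Of 6 epithelial markers, 5 lay above them on every array. The brightest, KRT8, was at 16.17 and 16.12 on the fb-PMT arrays and 16.43 and 16.45 on the control arrays. The other marker, CDH1, lay below the negative controls on all 4 arrays, with means of 7.07 with fb-PMT and 6.97 in the control group. Of 5 measured immune markers 4 lay below them on all 4 arrays, and LYZ, the exception, lay above.

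In resting cells, inhibitor proteins such as the product of NFKBIA hold NF-kB dimers in the cytoplasm. Receptors of the tumour necrosis factor, interleukin and Toll-like families switch on the IkB kinase complex, which marks the inhibitor for destruction and frees the dimers to enter the nucleus. The genes that then rise include NFKBIA and TNFAIP3, which shut the signal off again. A second, slower route processes the NFKB2 precursor into a partner of RELB. These steps act mostly on proteins, which an RNA array does not measure.

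The dimers bind a short DNA element, the kappa-B site, and the promoters of the members above background whose groups separated on the arrays are printed here to show where its consensus lies. Sequences are RefSeq promoter windows of build GRCh38.p14, from 250 bases before to 50 bases after an annotated start, 5′ to 3′ on the strand of the gene. Capitals mark matches to the kappa-B consensus on either strand. Adjoining or overlapping matches run together.
NFKBIA, chr14:35404700-35404999, minus strand: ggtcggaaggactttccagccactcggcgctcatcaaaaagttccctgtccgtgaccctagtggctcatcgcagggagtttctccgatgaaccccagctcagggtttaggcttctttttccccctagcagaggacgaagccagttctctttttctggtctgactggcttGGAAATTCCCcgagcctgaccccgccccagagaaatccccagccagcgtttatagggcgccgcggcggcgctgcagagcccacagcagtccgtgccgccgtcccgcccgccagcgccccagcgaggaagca
TNFAIP3, chr6:137867009-137867308, plus strand: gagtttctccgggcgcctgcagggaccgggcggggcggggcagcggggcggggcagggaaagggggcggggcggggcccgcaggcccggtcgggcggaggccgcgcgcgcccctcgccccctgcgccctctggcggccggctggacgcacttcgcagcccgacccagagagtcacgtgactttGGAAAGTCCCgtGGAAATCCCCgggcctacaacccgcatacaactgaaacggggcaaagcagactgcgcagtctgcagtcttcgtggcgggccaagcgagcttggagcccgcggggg
TNFAIP2, chr14:103123211-103123510, plus strand: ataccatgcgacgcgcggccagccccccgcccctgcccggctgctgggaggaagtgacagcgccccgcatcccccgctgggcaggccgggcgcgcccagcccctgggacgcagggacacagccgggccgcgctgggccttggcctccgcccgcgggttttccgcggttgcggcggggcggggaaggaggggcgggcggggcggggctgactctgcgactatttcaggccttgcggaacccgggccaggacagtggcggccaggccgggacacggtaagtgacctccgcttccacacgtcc
NFKB2, start 2, chr10:102394328-102394627, plus strand: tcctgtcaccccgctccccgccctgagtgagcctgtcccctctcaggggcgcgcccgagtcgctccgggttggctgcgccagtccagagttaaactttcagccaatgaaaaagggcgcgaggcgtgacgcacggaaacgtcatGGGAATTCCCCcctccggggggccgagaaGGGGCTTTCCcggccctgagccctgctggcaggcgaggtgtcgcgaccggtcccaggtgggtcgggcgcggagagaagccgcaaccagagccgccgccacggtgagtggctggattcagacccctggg
NFKB2, start 3, chr10:102395455-102395754, plus strand: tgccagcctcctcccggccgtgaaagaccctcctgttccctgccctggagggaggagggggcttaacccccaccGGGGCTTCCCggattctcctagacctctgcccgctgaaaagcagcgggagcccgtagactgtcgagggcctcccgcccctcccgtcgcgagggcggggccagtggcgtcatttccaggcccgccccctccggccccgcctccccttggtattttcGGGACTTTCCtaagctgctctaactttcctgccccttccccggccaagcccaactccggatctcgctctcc
Positions are counted from the annotated start, with -1 for the base before it. NFKBIA held 1 match, at positions -81 to -72, on the strand opposite the gene. TNFAIP3 held 2 matches on its opposite strand, at positions -67 to -58 and -55 to -46. The TNFAIP2 window held 0, which says only that the consensus searched has no match in this window. NFKB2 has 3 windows. The first held 0, the second held 3 matching positions of which 2 overlap by all but 1 base, and the third held 2.

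Among the other members, REL carried GGGAAATTCC at positions -47 to -38, with a match on the other strand shifted by 1 base, and 1 of the 2 NFKB1 windows carried GGGAATTTCC at positions -49 to -40. The RELA windows (2) and the TRAF1 windows (3) held 0. RELB had no window among the promoters used and is not counted here. The windows of 5 of 8 members thus held at least 1 match (62.5%), against 2299 of 14250 genes with a transcript cluster and a window (16.1%). Among 67 other NF-kB pathway genes described below, 24 had a match (35.8%), as did 11 of the 19 textbook NF-kB targets within them (57.9%). The members were chosen as NF-kB genes, so the contrast with all genes is not a test. By window the share was 6 of 14 among the members (42.9%) and 12.8% among 20090 windows of genes with a transcript cluster. A match is a description of sequence and not a measured binding site. Genes with a match included NFKBIA and TNFAIP3, higher on both fb-PMT arrays, NFKB2, lower on both, and NFKB1 and REL, whose groups overlapped.

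**Figure D1:**
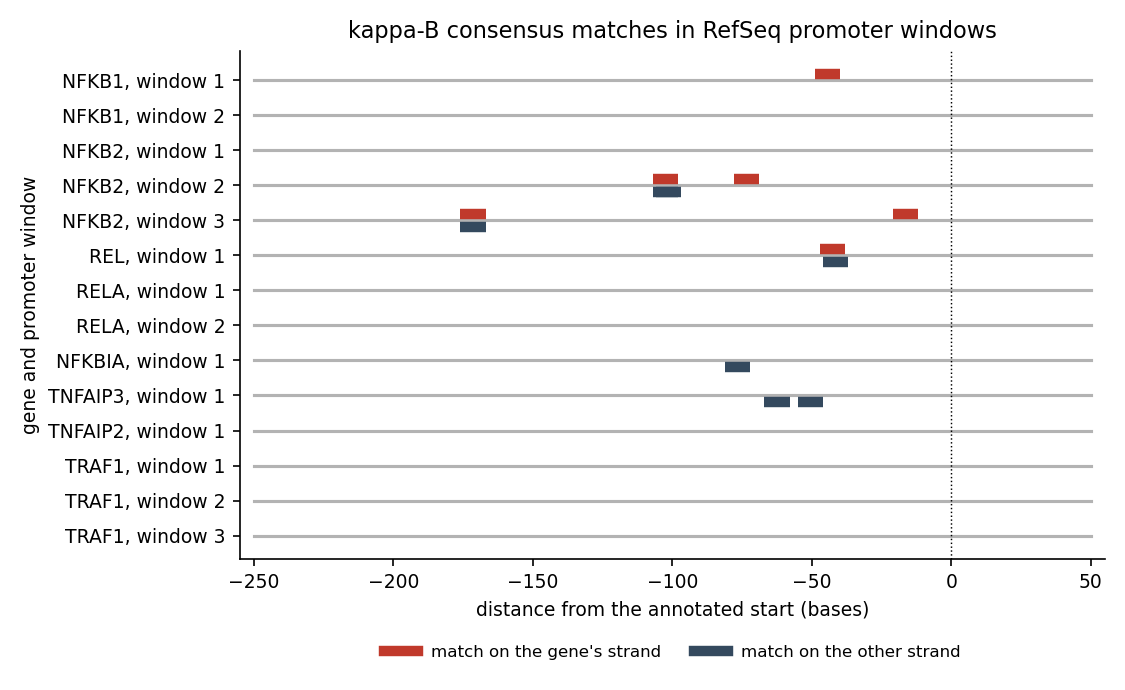
Positions of kappa-B consensus matches (bars; red above the line for the strand of the gene, blue below it for the other strand) in the promoter windows of 8 members, with the distance from the annotated start in bases on the horizontal axis. Matches lie in windows of NFKB1, NFKB2, REL, NFKBIA and TNFAIP3, and none in those of RELA, TNFAIP2 and TRAF1. RELB had no window.

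Array values are RMA values on the log2 scale, so a difference of 1 is a doubling. Background was taken as the 95th percentile of the negative controls, 7.15 and 7.29 on the fb-PMT arrays and 7.38 and 7.22 on the control arrays. Each transcript cluster was tested with limma, fb-PMT minus control, with Benjamini-Hochberg adjustment over all 21448 and a threshold of 0.05. By that test 0.0979% of all transcript clusters were called, every one of them higher with fb-PMT. None of the 9 members was called. Without adjustment, 3 members had p under 0.05 and were higher, and 1 was lower, against 5.7% and 5.49% of all transcript clusters.

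For 4 of the 9 members (TNFAIP2, NFKBIA, TNFAIP3 and RELB) each fb-PMT array exceeded each control array, as it did for 20.2% of all transcript clusters. In 2 members, NFKB2 and TRAF1, both fb-PMT arrays lay below both control arrays, as in 22.3% of all transcript clusters. RELB and TRAF1 stayed under the negative controls throughout, so of the 7 members above them 3 were higher, 1 was lower and 3 overlapped. Among all transcript clusters above the negative controls on 4 arrays, 26.4% were higher and 23.1% lower without overlap. The median log2 difference was -0.05 over the 9 members and -0.02 over all transcript clusters.

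**Figure D2:**
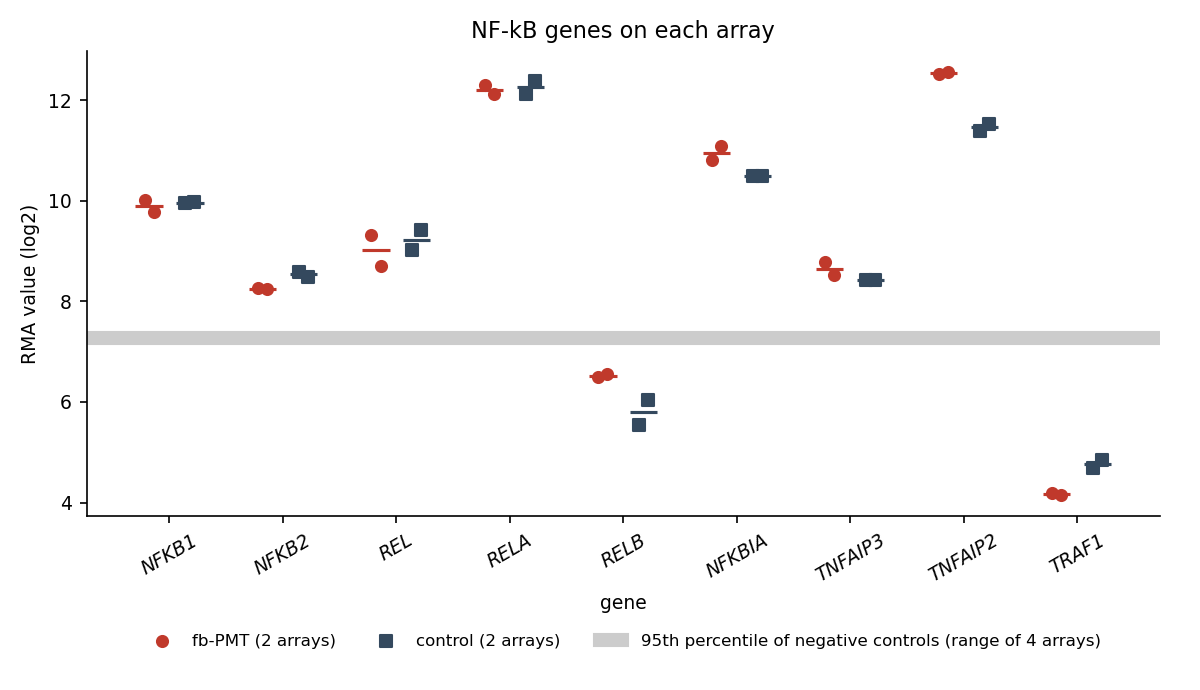
RMA values (log2, vertical axis) of the 9 measured members, with a point for each fb-PMT array (red circles, left of each pair) and each control array (blue squares, right), lines at the group means, and a grey band for the range over 4 arrays of the 95th percentile of negative controls. TNFAIP2 shows the widest gap between groups, while NFKB1, REL and RELA overlap, and RELB and TRAF1 lie under the band.

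The subunit genes gave no call in either direction. RELA encodes the subunit that carries most of the activating function of the classical dimer. It was measured at 12.29 and 12.12 on the fb-PMT arrays and at 12.12 and 12.38 on the control arrays. The groups overlapped, and the log2 difference was -0.05 (SE 0.17, 95% confidence interval -0.47 to 0.38, adjusted p = 0.948 in limma). It turned to 0.04 without fb-PMT replicate 2 and to 0.09 without control replicate 2.

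NFKB1 encodes the precursor of the partner with which RELA forms the classical dimer. Its values were 10.02 and 9.78 on the fb-PMT arrays, against 9.95 and 9.97 on the control arrays. The control arrays lay between the fb-PMT arrays, and the log2 difference was -0.06 (SE 0.16, interval -0.46 to 0.33, adjusted p = 0.919), which became 0.05 without fb-PMT replicate 2. For RELA and NFKB1 the intervals, which are not adjusted for the number of genes, hold fold ratios of fb-PMT to control from 0.72 to 1.3 and from 0.728 to 1.26.

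REL encodes c-Rel, best known from lymphocytes. It was at 9.32 and 8.70 on the fb-PMT arrays and at 9.03 and 9.41 on the control arrays. Its SD was 0.43 between the fb-PMT arrays and 0.27 between the control arrays. The log2 difference of -0.21 had the largest SE of the members, 0.26, and an interval of -0.85 to 0.43 (adjusted p = 0.808 in limma), and it ran from -0.52 to 0.10 when 1 array was left out, the low end without fb-PMT replicate 1 and the high end without the other fb-PMT array.

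NFKB2 encodes the precursor that the slower route processes. Its values were 8.26 and 8.24 on the fb-PMT arrays and 8.59 and 8.49 on the control arrays. Both fb-PMT arrays lay below both control arrays. The log2 difference was -0.28 (SE 0.15, interval -0.65 to 0.08), 1.22-fold lower with fb-PMT, and did not pass (adjusted p = 0.543 in limma). It ran from -0.33 to -0.23 when 1 array was left out.

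RELB, the partner of the processed NFKB2 product, was dim in both groups. It was at 6.49 and 6.56 on the fb-PMT arrays, against 5.54 and 6.05 on the control arrays, all below the negative controls. The fb-PMT arrays exceeded the control arrays by 0.44 to 1.02 in the 4 pairings of an fb-PMT with a control array. The measured log2 difference was 0.73 (SE 0.21, adjusted p = 0.352 in limma), and no fold is given at this level. No subunit transcript above the negative controls was higher on both fb-PMT arrays.

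Both inhibitor genes were higher on both fb-PMT arrays, and neither passed the test. NFKBIA encodes IkB-alpha, the inhibitor whose resynthesis ends a pulse of NF-kB activity. It was at 10.81 and 11.09 on the fb-PMT arrays and at 10.48 and 10.50 on the control arrays. The control arrays had an SD of 0.01, and the gap to them was 0.31 to 0.32 for fb-PMT replicate 1 and 0.59 to 0.61 for fb-PMT replicate 2. The log2 difference was 0.46 (SE 0.17, interval 0.05 to 0.87), a ratio of 1.37, with an unadjusted p of 0.035 and an adjusted p = 0.415 in limma.

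TNFAIP3 encodes A20, an enzyme that edits ubiquitin chains on signalling adaptors and so damps the pathway. It was at 8.78 and 8.52 on the fb-PMT arrays and at 8.43 and 8.42 on the control arrays. The groups did not overlap, but fb-PMT replicate 2 exceeded the control arrays by only 0.09 and 0.10. The log2 difference was 0.22 (SE 0.16, interval -0.18 to 0.63, adjusted p = 0.652 in limma), and it was 0.09 without fb-PMT replicate 1 and 0.35 without the second fb-PMT array.

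TNFAIP2, named for its induction by tumour necrosis factor and known to promote membrane protrusions, had the widest separation of the members. It was at 12.52 and 12.56 on the fb-PMT arrays and at 11.39 and 11.53 on the control arrays, 12.54 ± 0.03 and 11.46 ± 0.10 (SD, n = 2 each). The 4 pairings of arrays gave differences of 0.99 to 1.17, and leaving out 1 array moved the log2 difference of 1.08 only between 1.01 and 1.15. The measured ratio was 2.11 (interval 1.63 to 2.73), at the 99.4th percentile of signed differences over all transcript clusters. The adjusted p of 0.115 in limma missed the threshold. With an intensity trend in the variance, which called 1.37% of all transcript clusters higher and 0.513% lower, the adjusted p was 0.000409 and TNFAIP2 was the 1 member called, and when only transcript clusters with a mean above the negative controls were tested it was 0.00677. Over the alternatives that kept 2 arrays in each group and gave it a p-value, the adjusted p in limma ran from 0.000409 to 0.26. The high end came with the replicate number as a block.

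TRAF1, an adaptor that binds receptors of the tumour necrosis factor family, lay under the negative controls on every array. It was at 4.18 and 4.15 on the fb-PMT arrays and at 4.68 and 4.85 on the control arrays, lower on both fb-PMT arrays with a mean log2 difference of -0.60 (adjusted p = 0.314 in limma). No fold is given at this level.

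**Figure D3:**
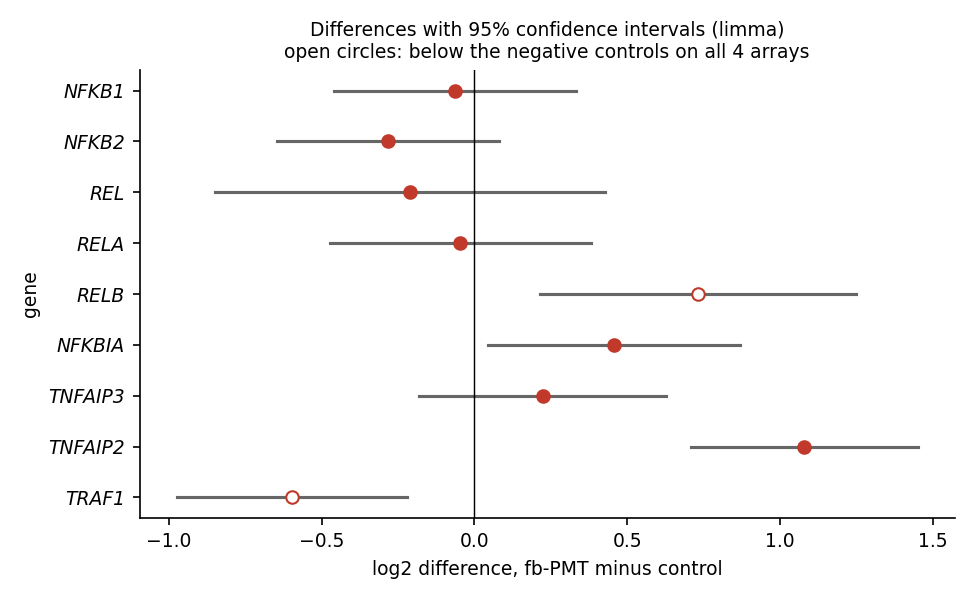
Log2 differences (fb-PMT minus control, horizontal axis) of the 9 members with 95% confidence intervals from limma, not adjusted for the number of genes. The intervals of TNFAIP2, NFKBIA and RELB lie above 0 and that of TRAF1 below it, the others include 0, and open circles mark RELB and TRAF1, below the negative controls.

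**Figure D4:**
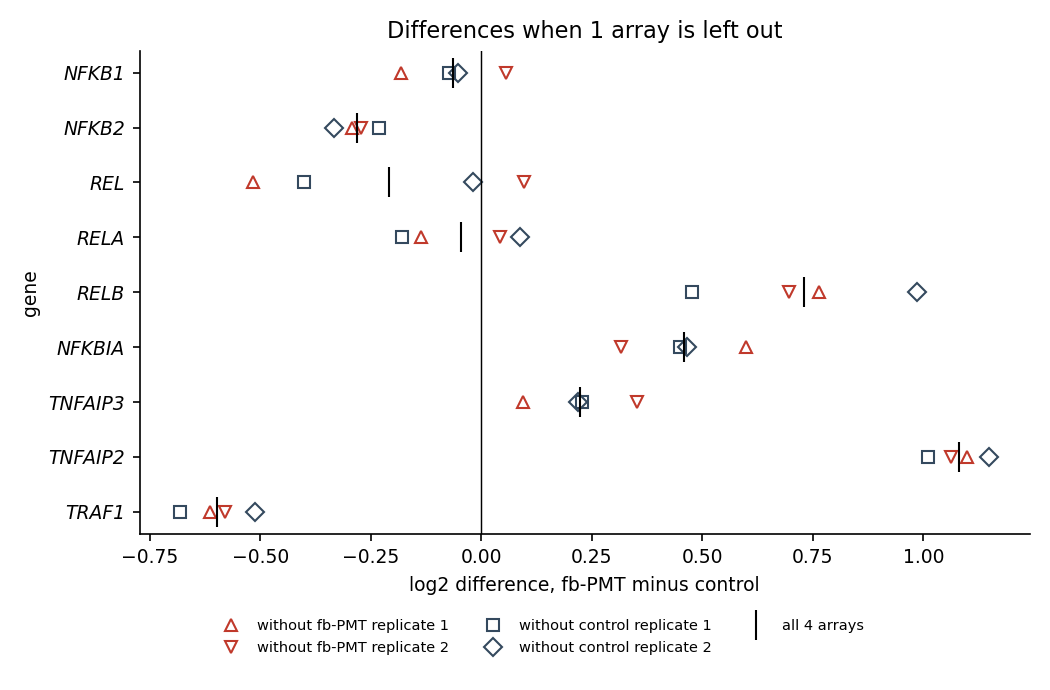
Log2 difference (fb-PMT minus control, horizontal axis) of each member with all 4 arrays (vertical ticks) and with 1 array left out (open symbols; red for an fb-PMT array left out, blue for a control array). TNFAIP2 stays between 1.01 and 1.15, while NFKB1, REL and RELA have symbols on both sides of 0.

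The rest of the pathway was read from a list of 89 genes in 6 roles, of which 79 had a transcript cluster. Of these, 3 rose past the threshold (IRF1, TNFSF10 and TNFRSF9) and 0 fell, against 0.0979% and 0% of all transcript clusters. Without adjustment, 16 with p under 0.05 were higher and 1 lower, against 5.7% and 5.49% of all transcript clusters. The groups separated upward for 32 of the 79 and downward for 10, against 20.2% and 22.3% of all transcript clusters, and their median log2 difference was 0.09, against -0.02 over all transcript clusters. Of the 45 above the negative controls on every array, 21 were higher and 8 lower without overlap, against 26.4% and 23.1% of all transcript clusters at such levels. The 20.2% and 22.3%, used again for each role below, include 11820 transcript clusters under the negative controls on every array. The list was written with earlier results of these data known.

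Among receptors and the adaptors next to them, 1 of 16 measured genes rose past the threshold, against 0.0979% of all transcript clusters. TNFRSF9, the costimulatory receptor 4-1BB, was at 8.87 and 8.91 on the fb-PMT arrays and at 6.56 and 5.93 on the control arrays. The control arrays were below the negative controls, so it was at least 3.01-fold higher (adjusted p = 0.0479 in limma, and 0.0508 after renewed quantile normalization, which ends the call). TLR3, the Toll-like receptor for double-stranded RNA, was at 12.46 and 12.46 on the fb-PMT arrays and at 10.58 and 10.95 on the control arrays. Its ratio of 3.24 missed the threshold (adjusted p = 0.061). Among the alternatives that kept 2 arrays in each group it passed in 5, the intensity trend being 1 of them. It did not pass with the replicate number as a block, renewed quantile normalization, centring on medians or array weights.

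The other receptor-side genes named differed less than these. The log2 difference was 0.49 for MYD88, the adaptor of most Toll-like receptors, and 0.46 for TLR4, the receptor for lipopolysaccharide. MALT1, a protease that relays antigen receptor signals, was at -0.44. None of the 3 passed (adjusted p of 0.375, 0.395 and 0.464). In this role 8 of 16 genes were higher and 1 lower without overlap, against 20.2% and 22.3% of all transcript clusters. Of the 16, 12 lay above the negative controls on every array, where the shares of all transcript clusters were 26.4% and 23.1%.

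Of 8 measured ligand genes, 1 rose past the threshold, against 0.0979% of all transcript clusters, and 6 stayed under the negative controls on every array. TNFSF10, the death ligand TRAIL, was at 15.72 and 15.65 on the fb-PMT arrays and at 13.41 and 13.41 on the control arrays, 4.84-fold higher (SE 0.15 on the log2 scale, adjusted p = 0.0179 in limma). TNFSF15, a cytokine of the same family, differed by 0.37 (adjusted p = 0.454). The 6 were LTA, LTB, TNFSF11, TNFSF12, IL1A and IL1B. Among them TNFSF12 and TNFSF11, singled out after their values were seen, had measured log2 differences of 0.74 and 0.59 (adjusted p of 0.32 and 0.376 in limma).

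In the kinase layer 0 of 10 measured genes passed, with 4 higher and 1 lower without overlap, against 20.2% and 22.3% of all transcript clusters. TBK1, a kinase related to the IkB kinases, was at 9.94 and 10.06 on the fb-PMT arrays and at 9.41 and 9.62 on the control arrays (log2 difference 0.49, adjusted p = 0.386 in limma). IKBKB, a catalytic subunit of the classical kinase complex, differed by 0.16, TAB3, which activates the kinase upstream of it, by 0.18, and TANK, which binds TBK1, by -0.19.

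The IkB family and the ubiquitin layer, which holds activators and inhibitors of the pathway, also gave no call. Of 6 measured relatives of NFKBIA and proteins that bind its family, 2 were higher and 0 lower without overlap, against 20.2% and 22.3% of all transcript clusters. NFKBIZ, a nuclear member of the IkB family, was at 11.05 and 10.97 on the fb-PMT arrays and at 10.48 and 10.77 on the control arrays (log2 difference 0.39, adjusted p = 0.479 in limma). Among 15 measured ubiquitin enzymes and adaptors, 5 were higher and 0 lower without overlap, against the same shares of 20.2% and 22.3%. CYLD, an enzyme that removes ubiquitin chains from the same adaptors as A20, was at 7.70 and 7.60 on the fb-PMT arrays and at 7.02 and 7.30 on the control arrays (log2 difference 0.49), with control replicate 1 below the negative controls. RBCK1, a part of the enzyme that builds linear ubiquitin chains, differed by 0.46, and TNIP1 and TAX1BP1, which both bind A20, by 0.35 and 0.30. The adjusted p of these 4 genes ran from 0.396 for CYLD to 0.59 for TAX1BP1.

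Of 24 measured textbook target genes of NF-kB, 1 rose past the threshold and 0 fell, against 0.0979% and 0% of all transcript clusters. On every array 11 of them stayed under the negative controls. IRF1, a transcription factor that interferon-gamma induces too, was at 10.35 and 10.56 on the fb-PMT arrays and at 7.83 and 7.64 on the control arrays, 6.57-fold higher (SE 0.17 on the log2 scale, adjusted p = 0.0179 in limma). LCN2, a secreted iron-scavenging protein, was 1.55-fold higher at 11.50 and 11.66 on the fb-PMT arrays, against 10.93 and 10.97 on the control arrays (adjusted p = 0.293, and 0.0244 with an intensity trend).

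Other targets lay on either side of 0. The log2 difference was 0.72 for IL32, an inflammatory cytokine, and 0.54 for ICAM1, a leukocyte adhesion molecule, while IER3, an early response gene, was at -0.38 (adjusted p of 0.377, 0.357 and 0.469 in limma). In this role 7 of 24 genes were higher and 7 lower without overlap, against 20.2% and 22.3% of all transcript clusters. The 11 targets under the negative controls were CXCL1, CXCL2, CXCL3, CXCL8, CCL2, IL6, VCAM1, BCL2A1, PTGS2, MMP9 and TNFAIP6. Of these VCAM1, an endothelial adhesion molecule singled out after its values were seen, had the largest measured difference. It was at 6.71 and 6.05 on the fb-PMT arrays and at 5.08 and 4.65 on the control arrays. Its log2 difference was 1.52 (adjusted p = 0.203 in limma, and 0.0255 with an intensity trend). CXCL1, also singled out after its values were seen, was lower on both fb-PMT arrays, at 5.24 and 5.30. On the control arrays it was at 5.83 and 6.05 (log2 difference -0.67, adjusted p = 0.285 in limma). No fold is given for either gene at this level.

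**Figure D5:**
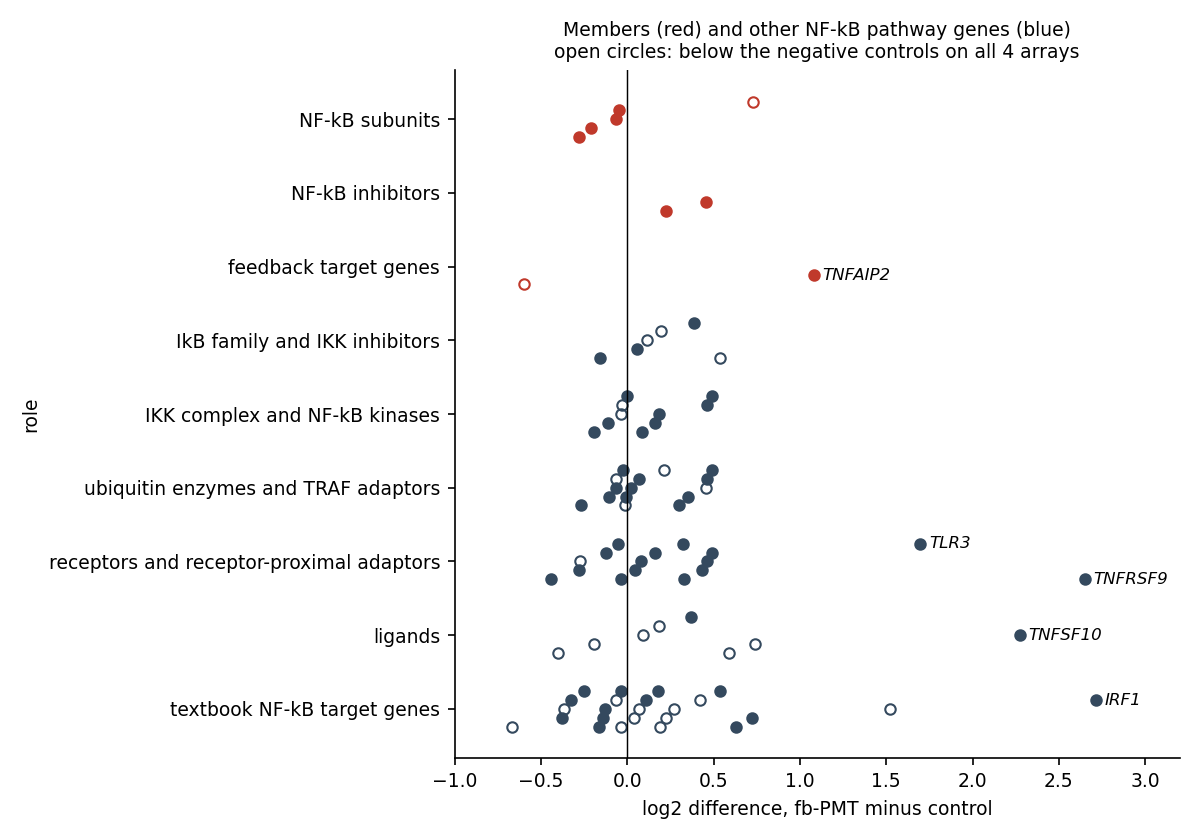
Log2 differences (fb-PMT minus control, horizontal axis) of the 9 members (red) and 79 other pathway genes (blue) by role (vertical axis; height within a role only separates the points). IRF1, TNFRSF9 and TNFSF10, past the threshold, and TLR3 and TNFAIP2, which missed it, are labelled, and open circles mark genes under the negative controls on every array.

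Leaving out 1 array leaves a lone array in a group, so only differences are given for those fits. The log2 differences stayed at 2.61 to 2.82 for IRF1, 2.24 to 2.31 for TNFSF10 and 2.34 to 2.96 for TNFRSF9. With the replicate number as a block, 0 genes of the pathway list and 0 members were called. That fit called only 1 of all 21448 transcript clusters, against 21 in the main fit. Bulk RNA cannot tell a change in each cell from a change in the share of cells that express a gene.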

How the data were processed

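RNA of 2 fb-PMT and 2 control samples was measured on single-colour whole-transcript arrays. Per the submitters' processing notes, the deposited log2 values come from RMA, run in version 4.0.1.36 of Transcriptome Analysis Console. The RMA variant was not given in the sources used here, nor was the array's genome build. RMA normalizes between arrays, which removes a shift shared by most genes, and it compresses differences of dim probe sets. No detection calls were used here.

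The deposited table held 24351 rows. The 2903 control probe sets were left out, 612 of them the negative controls used for background, and 21448 transcript clusters entered lmFit and eBayes of limma 3.58.1 under R 4.3.3 (no trend, no covariate; 2 residual and 3.72 prior degrees of freedom). The number of arrays limits the precision: the median SE of a log2 difference was 0.175. A gene below the 95th percentile of the negative controls on both arrays of 1 group gets a lower bound of its fold, computed from that percentile, and no fold where both groups are below it.

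Of the annotation's 17709 symbols all matched RefSeq by Entrez identifier and 0 differed. The kappa-B consensus was searched on both strands of RefSeq windows in Python 3.11.15. The members, gene lists and tests were chosen with earlier results of these data known. The text names all members and, from each role of the pathway list, each gene past the threshold and up to 4 with the largest difference among those without overlap and above the negative controls on both arrays of a group. No gene was ranked by likeness to the members, since 4 arrays are too few. The fit was tested on simulated data. The 15 alternatives were a replicate block, intensity trends (also with robust variances), 3 filters, 2 other scalings, array weights, leaving out each array, and 2 other thresholds.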

Additional observations from a re-analysis of the deposited data

How the results depend on the processing

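The count of 0 members past the threshold became 1, TNFAIP2, with an intensity trend, with the trend and robust variances, with only mean levels above the negative controls and at an adjusted p threshold of 0.2. In that order, these settings called 403, 394, 269 and 174 transcript clusters in all, against 21 in the main fit. The filter on negative controls left 9168 transcript clusters to test. The member count stayed at 0 in the other alternatives that kept 2 arrays in each group. The count of 3 other pathway genes became 6 with either trend and 5 with only mean levels above the negative controls. It was 2 after renewed quantile normalization, where TNFRSF9 had an adjusted p of 0.0508 in limma and 17 transcript clusters were called in all. With the replicate block it was 0. The cause was not tested. Members lower without overlap numbered 1 with the filter on negative controls, which leaves out TRAF1, and 2 to 5 when 1 array was left out, where a lone array makes overlap rarer. Members higher without overlap numbered 4 to 5 when 1 array was left out, and the members' median difference ran from -0.14 to 0.10. Signs turned for NFKB1 (-0.18 to 0.055), REL (-0.52 to 0.10) and RELA (-0.18 to 0.087) when 1 array was left out (RELA also 0.043 without fb-PMT replicate 2). The other 6 members kept their sign in every alternative that tested them. The same replicate numbers occur in both groups, and the numbers were not taken to pair the arrays in the main fit. The deviations of same-numbered arrays correlated with r = 0.042. With the replicate block 0 members and 0 other pathway genes passed, and only 1 of all 21448 transcript clusters did. RELB, TRAF1 and 27 other pathway genes lay below the negative controls on all 4 arrays, where differences are compressed.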
